A study of Danio rerio with 6 samples.

Results

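The SLC2 and SLC5 families hold the membrane carriers that move sugars into and out of cells, together with sodium-coupled relatives that take other small solutes. SLC2 proteins, the GLUT carriers, let sugars pass down their own gradient. SLC5 proteins use the sodium gradient kept by the sodium pump to draw their substrate in, which in mammals lets the gut and kidney take up glucose against a gradient. The families were chosen with earlier results of these data known. Within them, every gene identifier whose zebrafish symbol begins with slc2a or slc5a and a number was taken. That gave 34 of 32520 gene identifiers, 19 of them SLC2 and 15 SLC5. The name fits all but 1 as a carrier: slc2a4rg encodes a DNA-binding regulator named after the insulin-responsive glucose carrier, and it is left out of summed levels. Within SLC5, sugar is the substrate of a part only, since the family also carries inositol, monocarboxylates, iodide, vitamins and choline.

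Whole zebrafish embryos aged 5 days gave the RNA. The sas10 mutant has 3 libraries (headed s1, s2 and s3) and wild type has 3 (wt11, wt12 and wt13). Sas10 is a nucleolar protein needed to mature the RNA of the small ribosomal subunit. The labels give neither the mutant allele nor the clutch or number of embryos behind a library. Each library held 17599625 to 19718753 counts in genes. Of the 34 genes, 32 had enough reads to be tested. Transcripts of utp3, which encodes Sas10, stood at 10.8 ± 0.42 CPM (counts scaled to library size) in sas10 mutants and 32.3 ± 4.43 CPM in wild type (SD, n = 3 each; log2 -1.58), with no overlap. The marker lists of gut, kidney tubule, liver, vessel, muscle, retina and blood each had reads in every library. Not every single marker did: a mep1b copy of the gut list had 0 counts in mutants.

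Sodium-coupled carriers fell or were not called, while facilitated carriers moved both ways. Of 13 tested SLC5 genes, 7 fell and 0 rose (quasi-likelihood test of edgeR; p adjusted over all genes by the Benjamini-Hochberg method, under 0.05). The count of increases was also 0 at an unadjusted p under 0.05, with DESeq2 and with limma voom. Of 19 SLC2 genes, 6 fell and 3 rose. Over all 21708 genes tested, 31.8% fell and 30.5% rose, 62.2% in all. The share that fell was thus 53.8% in SLC5 and 31.6% in SLC2, the second close to that of all genes. Shares that rose were 0% in SLC5 and 15.8% in SLC2. The median log2 fold change (mutant over wild type) was -0.58 over tested SLC5 genes, -0.18 over SLC2 genes and -0.04 over all genes. The difference between the families was not tested, since the genes were named with results of these data known.

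The spread between libraries gave a like picture. Mutant and wild type libraries did not overlap for 8 of 13 tested SLC5 genes, 7 of them lower and 1, slc5a3b, higher in the mutant. For SLC2 it was 10 of 19, with 7 lower and 3 higher. Over all genes tested 67.6% did not overlap. Changes of at least 2-fold among called genes numbered 6 lower and 0 higher in SLC5, and 5 lower and 3 higher in SLC2, against 16.4% lower and 13.2% higher over all genes. Without library wt11, 6 SLC2 genes and 1 SLC5 gene rose, with slc2a6, slc2a8, slc2a11b and slc5a3b added; these were chosen after their values were seen.

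**Figure D1:**
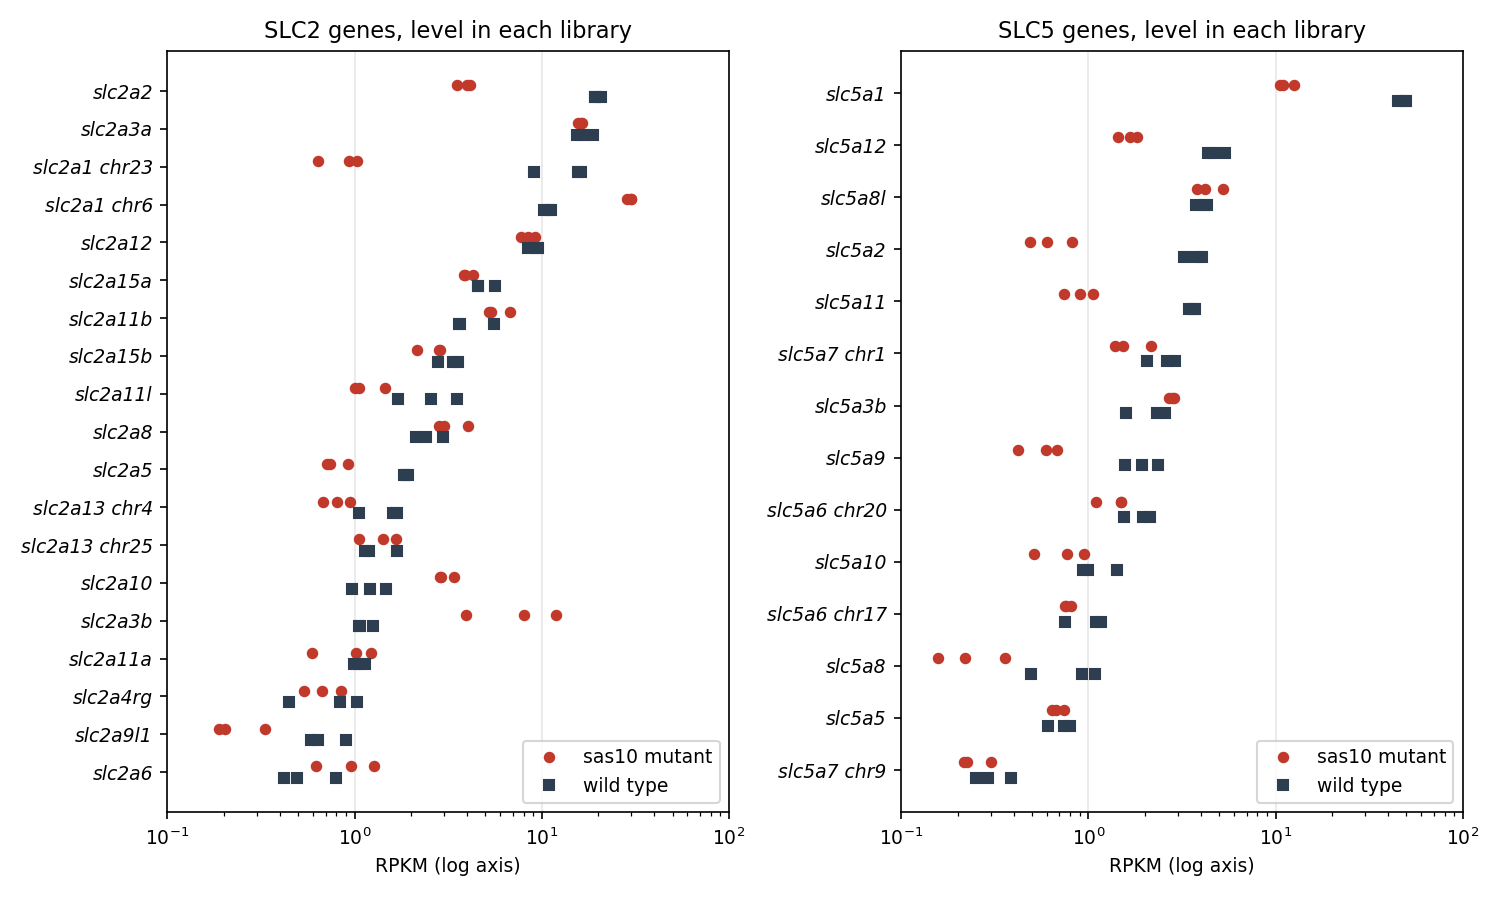
Level of each SLC2 gene (left) and SLC5 gene (right) in every library, in reads per exon length and library size (RPKM) on a log axis, with circles for the 3 sas10 mutant libraries and squares for the 3 wild type libraries; slc5a3a, at 0 reads, is not drawn. The slc2a1 copies on chromosomes 6 and 23 lie on opposite sides of their wild type values, and slc5a1 lies near 11 RPKM in mutants against a wild type level above all other members.

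The order of levels differed between genotypes. Levels are RPKM, counts divided by exon length and by scaled library size, so that genes of unequal length can be set side by side. In sas10 mutants the slc2a1 copy on chromosome 6 stood first (29.5 ± 0.80 RPKM), followed by slc2a3a (16.1 ± 0.43 RPKM) and slc5a1 (11.3 ± 1.03 RPKM). Next came slc2a12 (8.49 ± 0.70 RPKM) and slc2a3b (7.95 ± 3.96 RPKM), which overlapped between libraries. The range of slc2a3b also overlapped that of slc5a1. In wild type slc5a1 stood first (47.7 ± 2.38 RPKM), followed by slc2a2 (19.7 ± 0.80 RPKM) and slc2a3a (17.0 ± 1.73 RPKM). The slc2a1 copies on chromosome 23 (13.7 ± 3.98 RPKM) and chromosome 6 (10.8 ± 0.46 RPKM) came next and overlapped (SD, n = 3 libraries throughout). The range of the chromosome 23 copy also overlapped that of slc2a3a.

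Of the 5 glucose carriers of the SLC2 family, 2 rose and 2 fell. The name table gives the symbol slc2a1, for the GLUT1 carrier of basal glucose uptake that in mammals serves the blood-brain barrier, red cells and retina, to a pair of zebrafish genes. The copy on chromosome 6 (ENSDARG00000007412, GRCz11 48068695 to 48094342, minus strand) had 28.6, 29.8 and 30.1 RPKM in sas10 mutants s1, s2 and s3, against 10.9, 10.3 and 11.2 RPKM in wild type wt11, wt12 and wt13. All mutant libraries were high and close together, and the groups did not overlap. It rose by a log2 fold change of 1.45 ± 0.10 (SE; edgeR adjusted p = 3.82e-07), a fold of 2.73.

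The copy on chromosome 23 (ENSDARG00000001437, 22200467 to 22212635, plus strand) went the other way. It had 0.94, 1.03 and 0.64 RPKM in sas10 mutants, against 9.11, 15.7 and 16.3 RPKM in wild type. Library wt11 was the lowest of wild type and still far above every mutant library. Its log2 fold change was -3.98 ± 0.27 (edgeR adjusted p = 4.41e-07), so that wild type stood 15.8-fold above the mutant, the largest change of either family among tested members. The authors' deposited table gives log2 fold changes of 1.38 for the copy on chromosome 6 and -4.06 for that on chromosome 23.

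The 2 copies together were at 30.4 ± 0.73 RPKM in sas10 mutants and 24.5 ± 3.94 RPKM in wild type. The copy on chromosome 6 held 97.1% ± 0.69 of this sum in mutants and 44.9% ± 8.32 in wild type. The log2 ratio of the chromosome 23 copy over the chromosome 6 copy averaged -4.96 ± 0.35 in mutants and 0.30 ± 0.48 in wild type. The difference of -5.25 gave p = 0.1 in a two-sided exact permutation test over the 6 libraries, the smallest p that 3 against 3 can give, and 0.18 adjusted over the 9 pairs of copies compared. The same p was reached by 5 of the 9 pairs, slc2a1, slc2a3, slc5a8 with slc5a8l, and slc2a11b with slc2a11l and with slc2a11a; some pairs share a gene. For the others p ran from 0.2 to 1. How the alignment shared reads between close copies was not tested.

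The slc2a3 genes, for the high-affinity GLUT3 carrier known from mammalian neurons, differed as well. The slc2a3b gene (ENSDARG00000037861, chromosome 16, 12474861 to 12496632, minus strand) had 3.95, 11.9 and 8.02 RPKM in sas10 mutants s1, s2 and s3, against 1.06, 1.255 and 1.07 RPKM in wild type. The mutant libraries varied widely among themselves, yet the lowest lay above all of wild type. It rose by a log2 fold change of 2.82 ± 0.37 (edgeR adjusted p = 0.000265). Its partner slc2a3a (ENSDARG00000013295) had 15.6, 16.4 and 16.2 RPKM in mutants, against 15.5, 16.7 and 18.9 RPKM in wild type. These overlapped, and the log2 fold change of -0.08 ± 0.11 did not pass (edgeR adjusted p = 0.534). The slc2a3b gene held 31.7% ± 10.9 of the slc2a3 sum in mutants and 6.24% ± 0.83 in wild type (exact permutation p = 0.1 for the log2 ratio of slc2a3a over slc2a3b, adjusted 0.18).

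**Figure D2:**
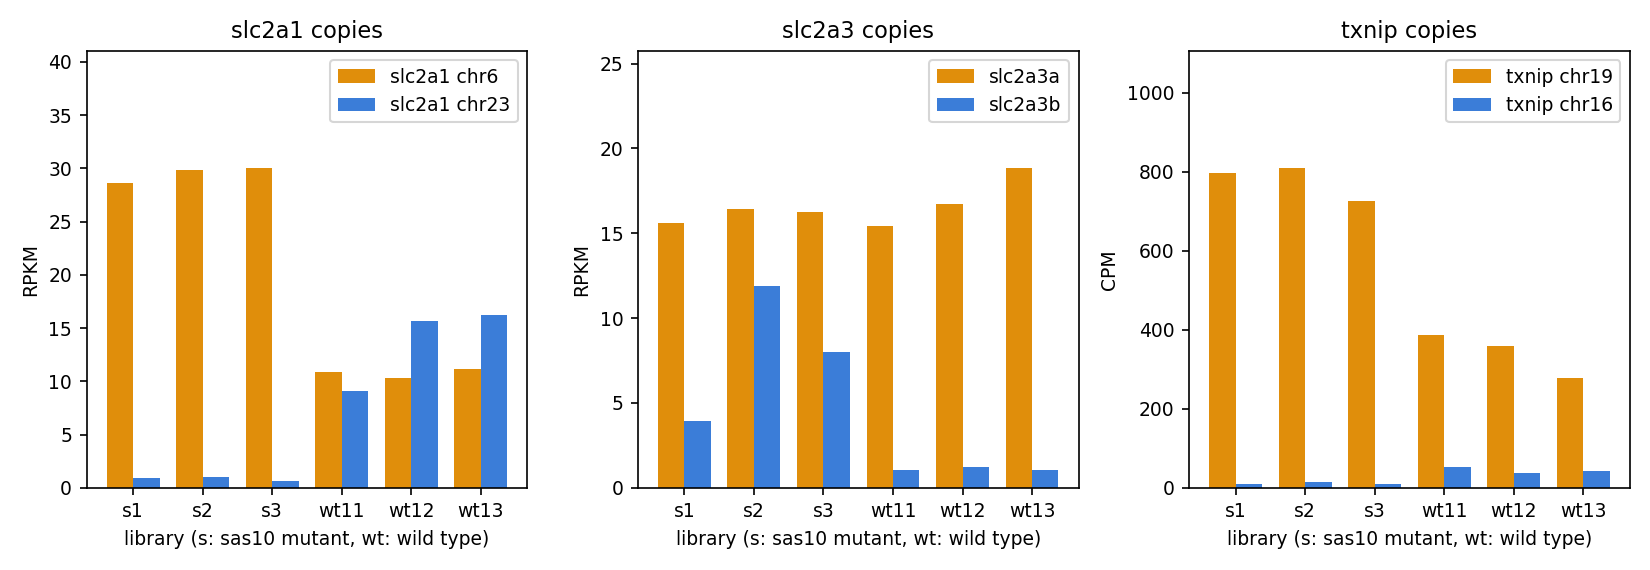
Level of each copy of slc2a1 and slc2a3 (RPKM) and of txnip (CPM) in every library, sas10 mutants on the left and wild type on the right of each panel; each bar is 1 library. The chromosome 23 copy of slc2a1 is at 1.03 RPKM or less in the mutants, where slc2a3b is at 3.95 to 11.9 RPKM, and the txnip copies moved in opposite directions.

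The slc2a2 gene, for the low-affinity GLUT2 carrier of liver, gut and islet in mammals, fell (ENSDARG00000056196, chromosome 2, 25816843 to 25837986). It had 3.52, 4.16 and 4.0 RPKM in sas10 mutants, against 19.2, 20.6 and 19.3 RPKM in wild type. Libraries within each genotype were close, and the gap between the groups was wide. The log2 fold change was -2.34 ± 0.12 (edgeR adjusted p = 1.92e-08). Of the summed level of the slc2a1, slc2a2 and slc2a3 genes, slc2a2 held 6.68% ± 0.11 in mutants and 31.8% ± 2.72 in wild type. That sum was itself 58.3 ± 5.39 RPKM in mutants and 62.3 ± 5.84 RPKM in wild type, with overlap. Its model shares 94 exon bases with tnik on the same strand. In whole embryos, fewer cells of a type and less RNA per cell cannot be told apart.

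Carriers of fructose and urate, and their fish relatives, fell or were not called. The slc2a5 gene, for the fructose carrier GLUT5 of mammalian gut, had 0.71, 0.74 and 0.93 RPKM in sas10 mutants, against 1.83, 1.88 and 1.94 RPKM in wild type (log2 -1.24 ± 0.22, edgeR adjusted p = 0.000502). The groups were apart, at low levels in both. The slc2a9l1 gene, related by name to the mammalian urate carrier GLUT9, had 14, 8 and 9 counts in mutants, against 37, 28 and 26 counts in wild type (log2 -1.54 ± 0.37, with edgeR's adjusted p at 0.00321). The gene is on chromosome 11, 6.88 Mb from utp3, as is slc2a10 at 23.9 Mb. Whether alleles linked to the mutation bear on them was not tested. For slc2a11l the values were 1.45, 1.00 and 1.05 RPKM in mutants, against 3.52, 1.70 and 2.57 RPKM in wild type (log2 -1.15 ± 0.28, edgeR adjusted p = 0.00381).

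Relatives of slc2a11l did not pass. The slc2a11b gene, needed in medaka for pigment cells, averaged 5.76 ± 0.85 RPKM in mutants and 4.27 ± 1.1 RPKM in wild type (log2 0.44, edgeR adjusted p = 0.0562), and slc2a11a had a log2 fold change of -0.18 (adjusted p = 0.554) and overlaps exons of tgfa on the other strand. The slc2a15a and slc2a15b genes, the second also needed for medaka pigment cells, had log2 fold changes of -0.29 and -0.31, and neither passed. Of 9 xanthophore markers, 6 fell and 1 rose, where 31.8% fell and 30.5% rose over all genes. They summed to 220.4 to 235.1 CPM in mutants and 291.2 to 344.2 CPM in wild type. Of this sum, xdh averaged 18.2 CPM in mutants and 71.4 CPM in wild type, and scarb1 averaged 16.5 and 39.5 CPM. The marker that rose, gch2, averaged 61.8 CPM in mutants and 49.9 CPM in wild type. For aox5, not called, the means were 24.0 and 21.0 CPM. These markers were named after their values were seen. The part of the xanthophore markers in the slc2a11 and slc2a15 values was not tested.

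SLC2 members that in mammals sit mainly on inner membranes, or carry inositol with protons, were mostly not called. The exception that rose was slc2a10, whose human counterpart is mutated in arterial tortuosity syndrome. It had 3.39, 2.90 and 2.85 RPKM in sas10 mutants, against 1.48, 1.22 and 0.97 RPKM in wild type (log2 1.32 ± 0.21, edgeR adjusted p = 0.000183), with no overlap. The slc2a13 copy on chromosome 4 (ENSDARG00000087867), of the inositol carrier group, fell by 0.84 on the log2 scale (edgeR adjusted p = 0.0242). That call was lost without s1, s2, wt12 or wt13 in turn. The copy on chromosome 25 (ENSDARG00000076899) was at log2 0.04 and shares 355 exon bases with lrrk2 on the other strand. The slc2a6, slc2a8 and slc2a12 genes had log2 fold changes of 0.74, 0.40 and -0.11, and slc2a4rg was at -0.18. None passed in the reported fit. The slc2a6 gene was called higher with DESeq2, with no filter beyond 1 count and without s1 or wt11 in turn. The slc2a8 gene was called higher without wt11 only.

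**Figure D3:**
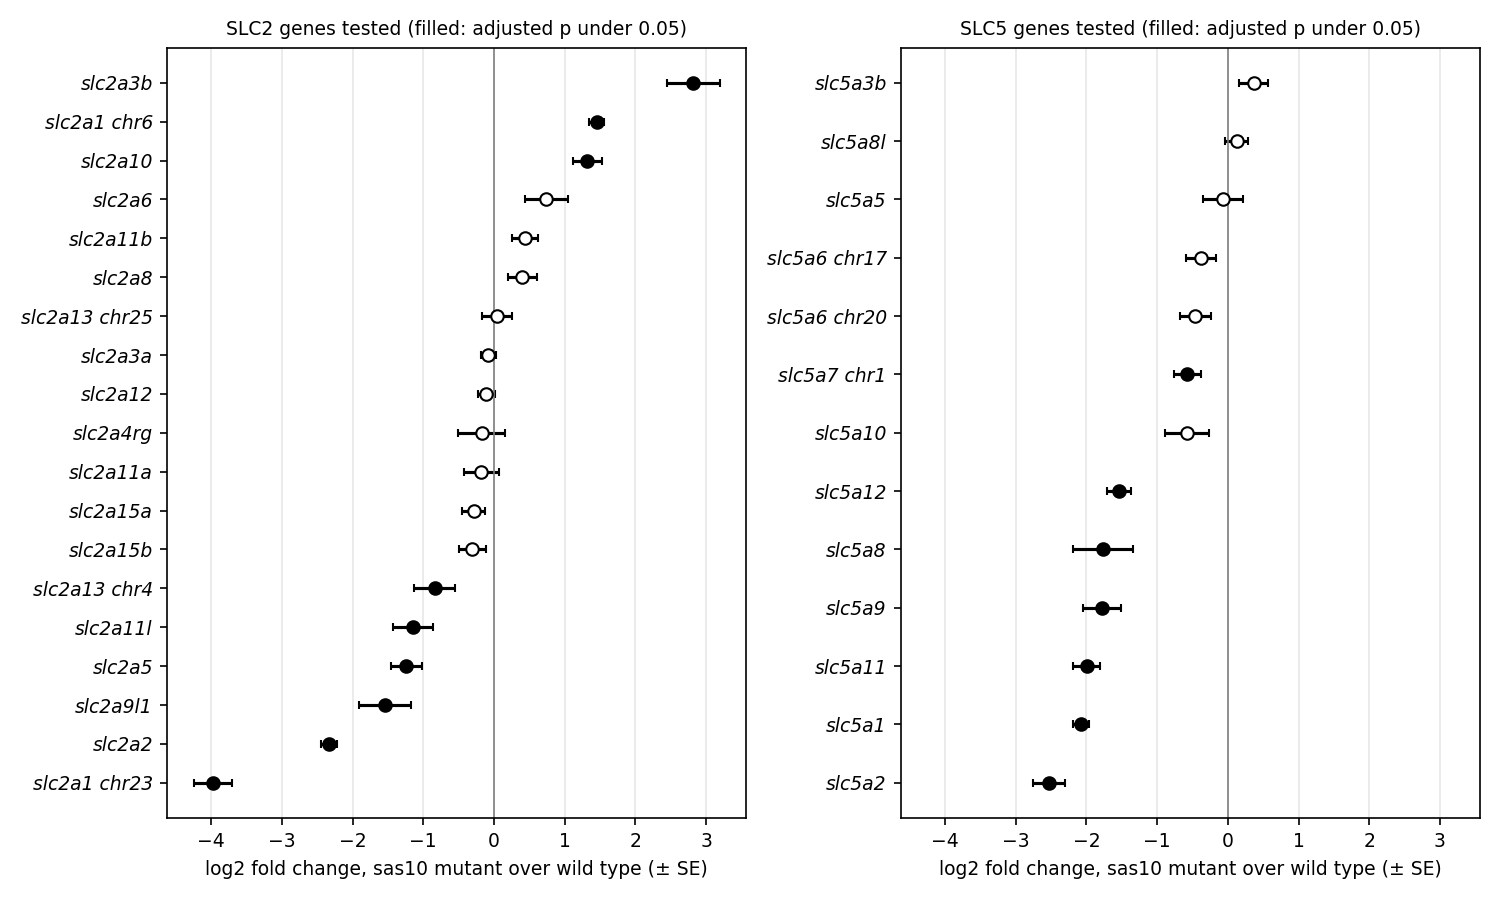
Log2 fold change of sas10 mutant over wild type with its standard error for the 19 tested SLC2 genes (left) and 13 tested SLC5 genes (right); filled points passed an edgeR adjusted p under 0.05. The SLC2 family spans -3.98 to 2.82, while the 2 SLC5 points above 0, slc5a3b and slc5a8l, are open.

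Among sodium-coupled carriers, 3 of 4 sugar carriers fell. The slc5a1 gene encodes SGLT1, the glucose and galactose carrier of mammalian gut brush border (ENSDARG00000013871, chromosome 10, 17135631 to 17159761, minus strand). It had 10.9, 12.5 and 10.6 RPKM in sas10 mutants, against 49.5, 48.6 and 45.0 RPKM in wild type. Every mutant library was low, with a wide gap. The log2 fold change was -2.07 ± 0.11 (edgeR adjusted p = 3.58e-08), and that of the authors' deposited table is -2.14. The slc5a2 gene, for SGLT2, the main glucose carrier of the mammalian kidney tubule, had 0.49, 0.81 and 0.60 RPKM in mutants, against 4.04, 3.23 and 3.75 RPKM in wild type. Its log2 fold change was -2.53 ± 0.23 (edgeR adjusted p = 2.20e-06).

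The slc5a9 gene, for the mannose and fructose carrier SGLT4, had 0.59, 0.42 and 0.68 RPKM in sas10 mutants, against 2.34, 1.93 and 1.57 RPKM in wild type (log2 -1.78 ± 0.27, edgeR adjusted p = 0.000144). The groups were apart. The fourth sugar carrier, slc5a10, had 18 to 35 counts in mutants and 34 to 49 counts in wild type, and its log2 fold change of -0.58 did not pass (edgeR adjusted p = 0.123). It shares 684 exon bases with fam83g on the other strand, so reads of the pair cannot be told apart there. Counts of fam83g were 1255 to 1486 in mutants and 409 to 449 in wild type, opposite in direction to those of slc5a10, and their part in its value was not tested.

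Of the inositol carriers, 1 fell and 1 was not called. The slc5a11 gene, for SMIT2, had 0.74, 1.06 and 0.90 RPKM in sas10 mutants, against 3.65, 3.73 and 3.45 RPKM in wild type (log2 -1.99 ± 0.19, edgeR adjusted p = 4.21e-06), with no overlap. The slc5a3b gene, for SMIT1, the carrier that mammalian cells raise in salt stress, had 2.70, 2.78 and 2.85 RPKM in mutants, against 2.55, 1.59 and 2.32 RPKM in wild type. Mutant libraries lay above wild type by little, and the log2 fold change of 0.37 ± 0.20 did not pass (edgeR adjusted p = 0.137). No read of slc5a3a was counted in any library, which allows up to 0.0766 to 0.0826 RPKM by library, from a limit of 3 counts that covers counting error only.

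Of 3 carriers of monocarboxylates such as lactate, 2 fell. The slc5a12 gene, the electroneutral form in zebrafish, had 1.81, 1.45 and 1.67 RPKM in sas10 mutants, against 5.38, 4.61 and 4.34 RPKM in wild type (log2 -1.54 ± 0.17, edgeR adjusted p = 1.20e-05). The slc5a8 gene had 8, 13 and 6 counts in mutants, against 33, 41 and 19 counts in wild type (log2 -1.76 ± 0.43, edgeR adjusted p = 0.00369). Its gene model shares 543 exon bases with lyrm5a on the other strand, whose counts were 189 to 221 in mutants and 177 to 248 in wild type. The electrogenic form slc5a8l was at 4.42 ± 0.75 RPKM in mutants and 4.05 ± 0.27 RPKM in wild type, with overlap (log2 0.12, edgeR adjusted p = 0.514).

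Of the carriers of iodide, vitamins and choline, 1 of 4 tested fell. The iodide carrier gene slc5a5, which in mammals serves the thyroid, had a log2 fold change of -0.07 (edgeR adjusted p = 0.852). Its libraries held 24 to 29 counts in sas10 mutants and 24 to 31 in wild type. Of 6 tested thyroid markers, 2 fell and 1 rose (33.3% and 16.7%, against 31.8% and 30.5% over all genes). The slc5a6 copies, for a biotin and pantothenate carrier, had log2 fold changes of -0.46 on chromosome 20 and -0.38 on chromosome 17, and neither passed; the second overlaps exons of cenpo and ankrd66 on the other strand. The slc5a7 copy on chromosome 1, for the choline carrier of cholinergic nerve endings, fell by 0.57 on the log2 scale (edgeR adjusted p = 0.0210), from overlapping libraries. That call was lost without s1, s2, wt12 or wt13 in turn. Of 7 cholinergic markers 3 fell and 0 rose (42.9% and 0%, against 31.8% and 30.5% over all genes). The count that rose was also 0 at an unadjusted edgeR p under 0.05, with DESeq2 and with limma voom. Mutant libraries lay wholly below wild type for 3 of these markers. They lay wholly above it for 2, mnx1 and mnx2b, which were not called. The part of the cholinergic markers in the slc5a7 value was not tested. The other slc5a7 copy had 6 to 10 counts per library and was not tested.

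The summed level of the families changed unequally. SLC5 carriers together were at 27.0, 28.1 and 29.0 RPKM in sas10 mutants, against 80.02, 76.8 and 72.1 RPKM in wild type, a ratio of means of 0.367. SLC2 carriers together were at 87.0, 95.2 and 93.2 RPKM in mutants, against 94.1, 97.9 and 99.7 RPKM in wild type, a ratio of 0.944. The SLC5 sums were far apart, and the SLC2 sums overlapped. The SLC5 sum was 0.305 ± 0.0091 of the SLC2 sum in mutants and 0.786 ± 0.064 of it in wild type. These sums are a description, with no test.

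A few genes made up much of these sums. The slc5a1 gene held 40.5% ± 4.05 of the SLC5 sum in sas10 mutants and 62.5% ± 0.68 in wild type. Without it, SLC5 carriers summed to 16.7 ± 1.53 RPKM in mutants and 28.6 ± 1.71 RPKM in wild type. The chromosome 6 copy of slc2a1 held 32.8%, 31.3% and 32.3% of the SLC2 sum in mutants, against 11.6%, 10.5% and 11.2% in wild type. SLC2 carriers other than the slc2a1 and slc2a3 genes summed to 37.4 ± 1.21 RPKM in mutants and 54.6 ± 2.67 RPKM in wild type, with no overlap. Most of this gap lay in slc2a2, which gave 3.89 ± 0.33 RPKM in mutants and 19.7 ± 0.80 RPKM in wild type. The slc2a10 gene, which rose, gave 3.05 ± 0.30 RPKM in mutants and 1.22 ± 0.26 RPKM in wild type.

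**Figure D4:**
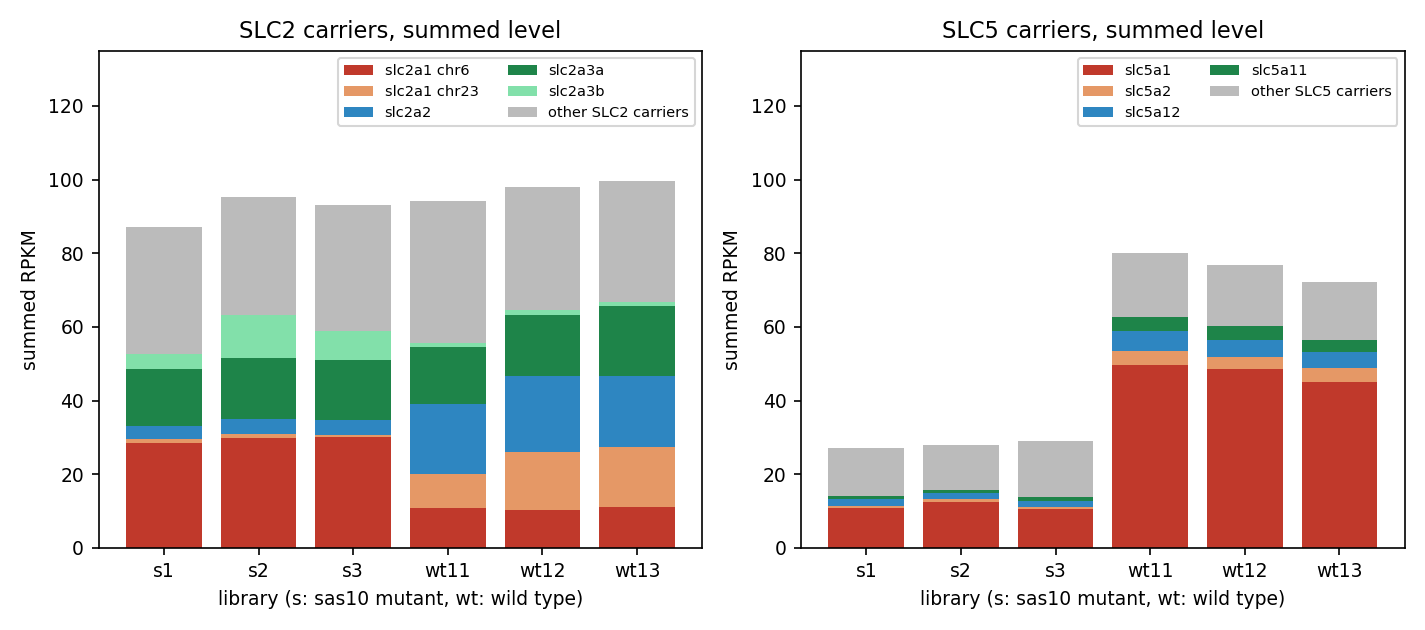
Summed RPKM of SLC2 carriers (left) and SLC5 carriers (right) in each library, sas10 mutants on the left of each panel and wild type on the right, stacked by gene. SLC2 totals lie between 87.0 and 99.7 in all 6 libraries with a different makeup, while SLC5 totals are 27.0 to 29.0 in mutants and 72.1 to 80.02 in wild type.

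Markers of gut, kidney tubule and liver, where several of these carriers are known to work, were set beside them. Of 17 enterocyte markers, 14 fell and 0 rose (82.4% and 0%, against 31.8% and 30.5% over all genes), with a median log2 of -3.31. None rose at an unadjusted edgeR p under 0.05, with DESeq2 or with limma voom either. Their summed level was 1131 to 1597 CPM in sas10 mutants and 5292 to 6224 CPM in wild type, and 1 marker, a mep1b copy, was at 0 counts in mutants. Of 15 kidney tubule markers, 8 fell and 2 rose (53.3% and 13.3%). They summed to 695.7 to 760.1 CPM in mutants and 704.3 to 802.2 CPM in wild type. Hepatocyte markers fell in 6 of 11 cases and rose in 4 (54.5% and 36.4%). They summed to 4651 to 5208 CPM in mutants and 4010 to 5629 CPM in wild type. The kidney tubule and liver sums overlapped between the genotypes, and the enterocyte sums did not. The median log2 was -0.62 for kidney tubule markers and -2.01 for liver markers. Single genes weighed on the enterocyte, kidney tubule and liver sums. Of the enterocyte sum, chia.2 gave 3.21 to 5.05 CPM in mutants and 1930 to 2471 CPM in wild type. An slc20a1 copy (ENSDARG00000010641) gave 490 to 542 CPM of the kidney tubule sum in mutants and 79.8 to 115 CPM in wild type. For the liver sum, apoa2 gave 2398 to 2797 CPM in mutants and 1664 to 2292 CPM in wild type. The fibrinogen genes fga, fgb and fgg, also among the markers that rose, averaged 596.6, 675.3 and 594.3 CPM in mutants. In wild type they averaged 148.8, 169.3 and 158.1 CPM. Among the liver markers that fell, tfa averaged 317.9 CPM in mutants and 1414 CPM in wild type. These single genes were named after their values were seen. The part of these tissue markers in the values of slc5a1, slc5a2, slc5a11, slc2a2 and slc2a5 was not tested.

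For sites of mammalian GLUT1, the markers moved in unlike directions. Of 13 photoreceptor markers, 11 fell and 1 rose (84.6% and 7.69%, against 31.8% and 30.5% over all genes). These markers summed to 399.6 to 524.5 CPM in sas10 mutants and 2853 to 4528 CPM in wild type. Of 11 markers of endothelium and the blood-brain barrier, 4 rose and 2 fell (36.4% and 18.2%). They summed to 416.4 to 461.4 CPM in mutants and 395.1 to 446.2 CPM in wild type. Red cell markers rose in 2 of 7 cases (28.6%), fell in 1 (14.3%) and were not called in 4. The shares that rose among endothelium and red cell markers were near that of all genes. Red cell markers summed to 336.3 to 595.2 CPM in mutants and 120.6 to 176.9 CPM in wild type. Of this red cell sum, hbae3 alone gave 287 to 518 CPM in mutants and 76.2 to 121 CPM in wild type. Fast muscle, not among the GLUT1 sites named above, was listed as well. Its markers rose in 4 of 8 cases and fell in 1 (50% and 12.5%). They summed to 47276 to 49077 CPM in mutants and 27674 to 38941 CPM in wild type. Which cells express each slc2a1 copy is not shown by whole-embryo counts, and the part of these tissues was not tested.

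Enzymes that act on carried sugars were compared next. Of 25 genes of sugar phosphorylation and release, 13 fell and 5 rose (52% and 20%, against 31.8% and 30.5% over all genes). The median log2 of the list was -0.77. The aldose reductase gene akr1b1 (ENSDARG00000006215) stood at 18.1 ± 0.90 CPM in mutants and 129.8 ± 13.3 CPM in wild type (log2 -2.84). Hexokinase hk2, which traps glucose in the cell, rose to 45.9 ± 5.58 CPM in mutants, against 9.04 ± 0.68 CPM in wild type (log2 2.35). Both passed edgeR at an adjusted p under 0.05.

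Of 25 genes of carrier regulation and insulin response, 9 were lower and 6 higher (36% and 24%, median log2 -0.22). Over all genes these shares were 31.8% and 30.5%. The arrestin-like protein Txnip draws GLUT carriers off the cell surface in mammals, and its zebrafish genes differed in direction. The copy on chromosome 19 (ENSDARG00000036107) was at 777.7 ± 45.7 CPM in sas10 mutants and 340.7 ± 56.2 CPM in wild type (log2 1.19 ± 0.15, edgeR adjusted p = 2.95e-05). The copy on chromosome 16 (ENSDARG00000070000) was at 11.12 ± 3.76 CPM in mutants and 44.9 ± 7.65 CPM in wild type (log2 -2.01 ± 0.22, edgeR adjusted p = 2.32e-05). The kinase gene sgk1, which in mammals raises the activity of several sodium-coupled carriers, rose by a log2 of 2.57, and the transcription factor gene klf15 fell by 1.77 on the log2 scale.

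Genes of the sodium pump, which keeps the gradient that SLC5 carriers use, were lower in 7 of 18 cases and higher in 6 (38.9% and 33.3%; median log2 -0.08), shares near those of all genes. Their summed level was 3614 to 3888 CPM in sas10 mutants and 3807 to 4009 CPM in wild type. The alpha subunit gene atp1a1a.4 was at 132.9 ± 11.2 CPM in mutants and 762.3 ± 46.0 CPM in wild type (log2 -2.52 ± 0.13), and a beta subunit copy, atp1b2 (ENSDARG00000034424), fell by 1.87 on the log2 scale. Against these, atp1a1a.3 rose by a log2 of 1.58. How reads were shared among the alpha subunit genes was not tested.

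Of 15 genes of inositol and osmolyte handling, 7 fell and 6 rose (46.7% and 40%, against 31.8% and 30.5% over all genes). Their median log2 was -0.32. The salt-stress factor gene nfat5b fell by 1.78 and the inositol phosphatase gene impa1 rose by 1.58 on the log2 scale. Of 14 other sugar and vitamin C carriers, 7 rose and 4 fell (50% and 28.6%), with a median log2 of 0.12. The share that fell was near that of all genes. Among those that rose were slc45a3 (log2 2.49) and an slc35a3 copy (ENSDARG00000020981, log2 1.53). An slc45a4 copy (ENSDARG00000104981, log2 -1.59) was among those that fell.

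**Figure D5:**
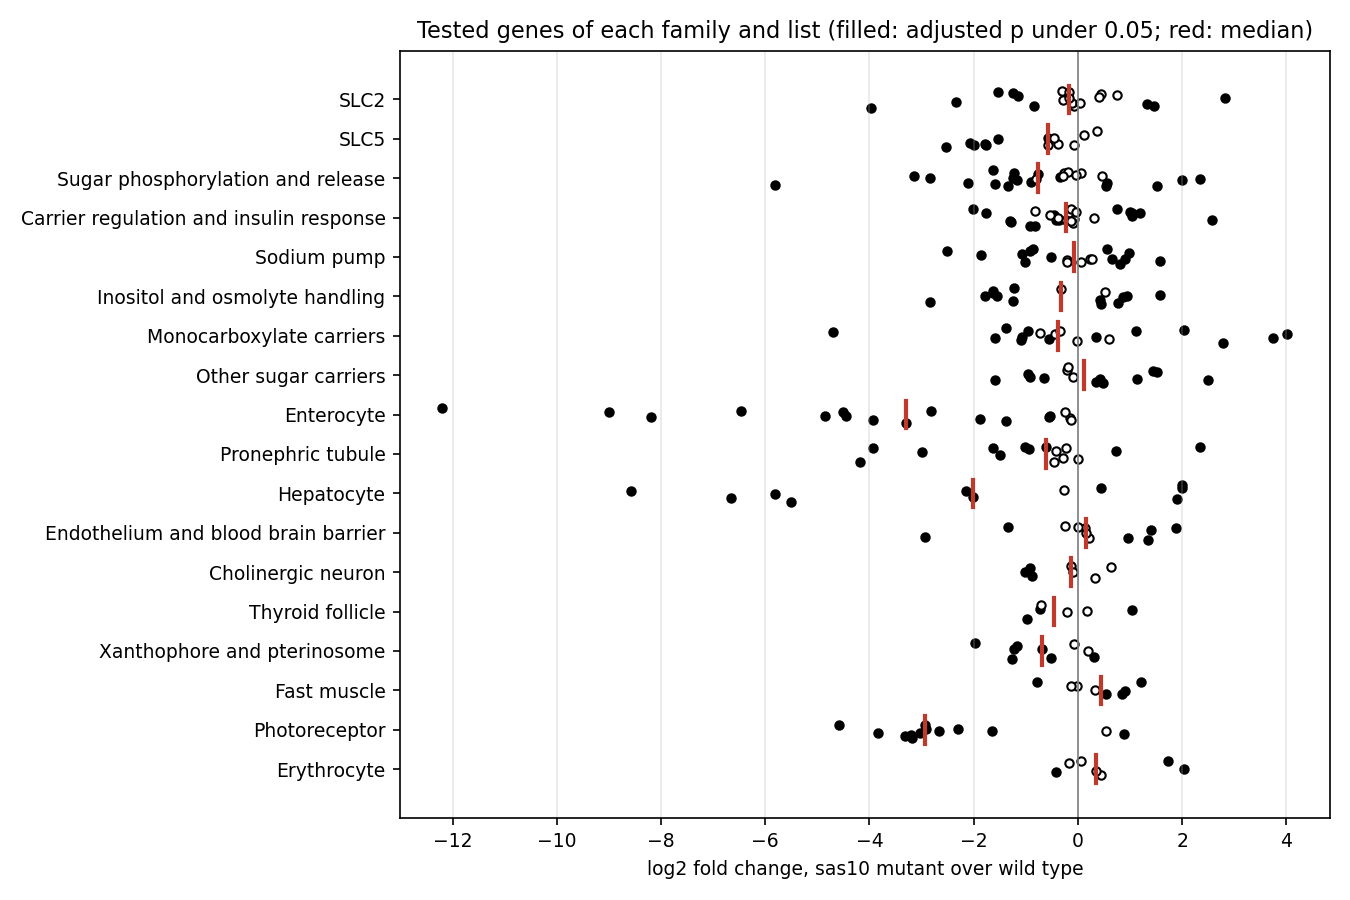
Log2 fold change of sas10 mutant over wild type for tested genes of both carrier families and of 16 lists of related genes and tissue markers; each point is 1 gene, filled where the edgeR adjusted p was under 0.05, and the red bar is the median. Enterocyte and photoreceptor markers have medians of -3.31 and -2.93, against -0.58 in SLC5 and -0.18 in SLC2; the leftmost enterocyte point is a fitted value of a gene with 0 mutant counts.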

How the data were processed

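Per the file headers, the authors made the deposited table of raw counts with featureCounts 2.0.1, counting read pairs on exons (Ensembl release 105, build GRCz11). The recorded command sets no strand, so overlapping genes on opposite strands cannot be told apart. The same table gives the exon length of each gene. Per the submitters' processing notes, fastp 0.20.0, HISAT2 2.2.1 and DESeq2 1.40.2 were also used. The authors' deposited table of the genotype comparison holds log2 fold changes with standard errors and adjusted p-values for 8574 genes. Of the carriers, 11 are in it, and 5 that were called here are not. All 8553 of its genes tested here had the same sign. That is no independent support, since both comparisons rest on the same series. A deposited table of ribosomal precursor regions was not used. Column headings show genotype but not replicate number, so libraries carry their headings.

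The main test was run in R 4.3.3 with edgeR 4.0.16 (TMM scaling, filter by expression, robust quasi-likelihood test), which kept 21708 genes; genes with an adjusted p under 0.05 were called. Symbols matched 29201 identifiers, and copies under a shared symbol are told apart by chromosome. Pairs of copies were compared by the log2 ratio of RPKM + 0.1. Alternatives were RLE and upper-quartile scaling, other filters, DESeq2 1.42.0, limma voom (3.58.1), each library left out, TPM, and a pseudocount of 0.5, the last added after seeing the data, as was leaving out libraries for the pairs. The script was tested on simulated counts. Library values are given for called carriers with a log2 change of at least 1 and a mean of at least 1 CPM, and for members of the lowest family numbers; from each pathway list, the 2 largest called changes in its majority direction and 1 in the other are named, except 1 gene that is not reported here. Members and lists were chosen with earlier results of these data known. Of the listed symbols, 179 matched and 17 did not. Replicate libraries differed by more than sampling noise; where labels do not say that libraries came from separate clutches, p-values measure only the spread between these samples.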

Additional observations from a re-analysis of the deposited data

How the results depend on the processing

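Counts of SLC2 genes that rose were 3 in the reported fit, 5 with no filter beyond 1 count, and 3 to 6 with each library left out, the 6 without wt11. SLC5 genes that rose numbered 0 to 1 with a library left out, the 1 being slc5a3b without wt11. Those that fell stayed at 5 to 7 for SLC2 and 6 to 8 for SLC5 over all alternatives. No called gene of either family changed sign. Over 12 alternatives per gene, 8 fits lost a call, for slc2a13 on chromosome 4 and slc5a7 on chromosome 1, and 12 gained one. Upper-quartile scaling put the median log2 fold change of all genes at -0.17, against -0.04 in the reported fit. The log2 ratio of summed levels, mutant over wild type, was -0.08 for SLC2 and -1.45 for SLC5. With TPM it was -0.16 and -1.52. Without the member with the highest mean over all libraries it was -0.47 for SLC2 and -0.78 for SLC5. The members left out were the slc2a1 copy on chromosome 6, which rose, and slc5a1, which fell. The slc2a2 gene, the highest of SLC2 in wild type, was kept, so the SLC2 value depends on which gene is left out. Exact permutation tests of 3 against 3 cannot pass, whatever the setting. No paired analysis was possible because the columns of the count table carry no replicate numbers of the labels. Genes with under 50 counts a library, such as slc2a9l1 and slc5a8, are limited by depth.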

Other observations

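Genes of the SLC16 family, which includes carriers of lactate and other monocarboxylates that do not use sodium, differed in both directions. Of 16 tested, 6 fell and 5 rose (edgeR adjusted p under 0.05), with a median log2 fold change of -0.39. These shares were near those over all genes tested, where 31.8% fell and 30.5% rose. Copies of slc16a7 (ENSDARG00000021573 and ENSDARG00000098258) fell by 4.71 and 1.58 on the log2 scale. An slc16a6 copy (ENSDARG00000060246) rose to 224.5 ± 11.6 CPM in sas10 mutants, against 13.8 ± 3.17 CPM in wild type (SD, n = 3 each; log2 4.02). Both slc16a9 copies rose as well (log2 3.74 and 2.79); these were chosen after their values were seen. The 16 genes summed to 764.5 to 817.3 CPM in mutants and 241.4 to 270.2 CPM in wild type. Much of this difference lay in the slc16a6 copy that rose and the slc16a9 copies. These averaged 224.5, 225.1 and 81.0 CPM in mutants, against 13.8, 16.8 and 11.7 CPM in wild type. The partner genes bsg and emb, of the same list and not carriers, are left out of these counts and sums; bsg rose (log2 1.11) and emb fell by 0.95 on the log2 scale.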
